A study of Homo sapiens with 18 samples.

Results

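The data described here were ATAC-seq read counts of 38 HOX genes, out of 54425 genes counted, in HEK293T cells, a line derived from human embryonic kidney, that carried fusion genes of the t(4;11) translocation. The 38 genes were taken by symbol, with no measured value in the rule, from a list set when earlier results of these data were known, and comprised 10 genes of the HOXA cluster, 10 of HOXB, 9 of HOXC and 9 of HOXD. ATAC-seq counts DNA fragments cut by a transposase at accessible chromatin, so the values report open DNA at a gene, not its RNA. The fusion partners are MLL, whose gene symbol is KMT2A, and AF4, whose symbol is AFF1. Each group held 3 libraries. MLL-AF4 cells carried an inducible MLL-AF4 construct, AF4-MLL cells an inducible AF4-MLL construct, and co-expression cells a constitutive MLL-AF4 construct plus inducible AF4-MLL, each on day 3 and day 28. Transgenes were induced with doxycycline at 1 µg/ml for 48 h in all groups. The constructs were stably inserted with Sleeping Beauty vectors, except that AF4-MLL was transfected transiently into the MLL-AF4 line for co-expression. By the study's account, AF4-MLL was active there around day 3 and was lost after doxycycline was withdrawn. Cells without a fusion were not analysed here, so each group could only be compared with other fusion-bearing groups. The cells are 1 transformed kidney line and not blood cells, the tissue in which the translocation causes leukemia.

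HOX genes encode homeodomain transcription factors that give cells their position along the body axis. They lie in 4 clusters, and genes with the same number in different clusters are paralogs. Normal MLL, a histone methyltransferase of the trithorax side, keeps HOX genes active, and Polycomb complexes keep them silent. Fusions of MLL are known to hold HOXA genes such as HOXA9 and HOXA10 in a high state in leukemia, where HOXA9 acts with the TALE protein MEIS1.

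By the RefSeq annotation of GRCh38.p14 the HOXA members span chr7:27100354-27200091, the HOXB members chr17:48528526-48728750, the HOXC members chr12:53938831-54056030 and the HOXD members chr2:176087487-176190907. Promoter sequences (250 bases before to 50 after an annotated transcript start, RefSeq, GRCh38.p14) were at hand for 20 of the 38 members, 9 of HOXA, 8 of HOXD, 2 of HOXC and only HOXB1 of HOXB, so the HOXB genes called below are not among them. HOXC4 and HOXC5 had the same sequence. These promoters were rich in CpG dinucleotides, with a median of 22.5 per 300 bases against 14 over 27305 promoters of the genome. The 16 promoters of members with enough counts for the test had a median of 24.5 CpG, and the 4 promoters of members with too few counts had a median of 15. The promoters held 4 to 44 CpG, and the sequences below run from 4 to 34, with each CpG in capitals. HOXD8 had the highest count level of its cluster and HOXD4 the lowest of all members, HOXA9 is the best known MLL fusion target, and HOXB1 is the HOXB member with the lowest counts.
HOXD8, chr2:176129455-176129754, plus strand, 34 CpG: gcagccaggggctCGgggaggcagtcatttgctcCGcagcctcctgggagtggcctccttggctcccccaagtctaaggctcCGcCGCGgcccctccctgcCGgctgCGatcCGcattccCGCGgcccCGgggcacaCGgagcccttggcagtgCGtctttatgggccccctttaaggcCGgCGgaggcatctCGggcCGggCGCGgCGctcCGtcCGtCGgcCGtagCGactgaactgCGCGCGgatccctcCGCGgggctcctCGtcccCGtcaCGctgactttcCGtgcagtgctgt
HOXA9, chr7:27165488-27165787, minus strand, 22 CpG: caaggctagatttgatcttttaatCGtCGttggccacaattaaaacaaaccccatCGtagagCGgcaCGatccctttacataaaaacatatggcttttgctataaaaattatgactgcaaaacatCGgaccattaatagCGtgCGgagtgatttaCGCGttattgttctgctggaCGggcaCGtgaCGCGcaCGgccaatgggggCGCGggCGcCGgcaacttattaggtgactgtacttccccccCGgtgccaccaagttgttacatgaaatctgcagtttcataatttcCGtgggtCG
HOXB1, chr17:48530962-48531261, minus strand, 11 CpG: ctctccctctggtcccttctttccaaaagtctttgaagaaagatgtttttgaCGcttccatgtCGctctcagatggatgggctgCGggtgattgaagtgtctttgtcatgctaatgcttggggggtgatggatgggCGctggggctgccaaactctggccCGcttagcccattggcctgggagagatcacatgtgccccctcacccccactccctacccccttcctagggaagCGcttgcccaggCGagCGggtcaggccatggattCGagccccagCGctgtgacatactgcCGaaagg
HOXD4, chr2:176151300-176151599, plus strand, 4 CpG: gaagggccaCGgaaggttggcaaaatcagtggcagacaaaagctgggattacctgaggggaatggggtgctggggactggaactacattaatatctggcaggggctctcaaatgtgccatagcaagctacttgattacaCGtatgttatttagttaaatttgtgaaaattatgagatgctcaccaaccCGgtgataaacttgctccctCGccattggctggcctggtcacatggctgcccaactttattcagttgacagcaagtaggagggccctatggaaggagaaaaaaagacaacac
The letters TATAAA, of the TATA box, were found on either strand in 4 of the 20 HOX promoters (20%) and in 11.95% of all promoters. The letters TGACAG, bound by TALE proteins, were found in 4 of 20 (20%) and in 15.9% of all promoters. With so few promoters these shares are only a description.

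Libraries held 442159 to 3539937 counts, of which the 38 HOX genes took from 565 counts in AF4-MLL cells on day 3, replicate 2, to 1822 in co-expression cells on day 28, replicate 1. The mitochondrial share of all counts was 32.7% to 45.6% on day 3 and 63.6% to 68.5% on day 28, so it moved with the day, and its part in the comparisons between days was not tested. Levels are given as CPM, counts divided by the library's total and brought to a common size, on library sizes scaled by TMM, an edgeR scaling that makes the bulk of genes equal between libraries. KMT2A, whose exons the constructs carry, was measured first as a check of the labels. On day 3 its level was 35.7 ± 6.94 CPM (SD, n = 3) in MLL-AF4 cells, 52.8 ± 5.09 in co-expression cells and 96.5 ± 12.6 in AF4-MLL cells. The day 28 levels were 45.4 ± 1.74, 67.4 ± 10.9 and 94.0 ± 9.53 CPM in the same order. Libraries with AF4-MLL alone and libraries with MLL-AF4 alone did not overlap on either day, with log2 differences of 1.39 and 1.06 (SE 0.17 and 0.13, edgeR adjusted p = 1.71e-10 and 7.54e-10). Co-expression against MLL-AF4 cells gave 0.56 and 0.62 on day 3 and day 28 (SE 0.19 and 0.15, edgeR adjusted p = 0.0876 and 0.00723). No fall of KMT2A over time was seen in co-expression cells (log2 difference 0.39, SE 0.14, edgeR adjusted p = 0.234), and the cause was not tested. Among markers of the cell type, the kidney regulators PAX2 and WT1 had group means between 12.1 and 24.1 CPM, and of 6 blood genes CD3E stayed at or under 2.64 CPM while PTPRC and SPI1 reached 18.6 and 23.4 CPM. The levels of kidney and blood genes overlapped.

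Of the 38 HOX genes, 34 had enough counts for the test. The 4 others were HOXB1, HOXD4, HOXD10 and HOXD12, with mean counts of 4.28, 0.61, 6.28 and 2.11 per library. HOXD4 was at 0 counts in 12 of 18 libraries and never exceeded 3. Mean levels over the 6 groups ran from 5.56 CPM in HOXA2 to 53.7 in HOXA10, from 3.11 in HOXB1 to 44.0 in HOXB3, from 6.28 in HOXC12 to 38.6 in HOXC6 and from 0.39 in HOXD4 to 44.1 in HOXD8. These are count levels that are not per length, so they do not rank genes by openness. Across all genes, the median count per library rose from 1.56 for genes spanning about 1941 bp to 5.5 at 5317 bp and 18.4 at 36052 bp, and was 20.9 at 180046 bp, so counts rose with the span of a gene, but less than in proportion among long genes. The HOX genes span 1677 to 45574 bp. Several HOX genes overlap each other or antisense genes. HOXA3 overlaps HOXA4, HOXA5 and HOXA6, HOXB3 overlaps HOXB4, HOXC4 overlaps HOXC5 and HOXC6, HOXD3 overlaps HOXD4, and HOXB5 and HOXB6 both overlap HOXB-AS3. ATAC fragments carry no strand information, so reads in such overlaps could not be told apart and the split between these genes is uncertain.

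The first question was whether any HOX cluster as a whole differed between constructs or days. The HOXB sum had the widest range of group means, with MLL-AF4 cells at both ends. The group means of the HOXA, HOXC and HOXD sums had narrower ranges, but some of their groups also stood apart. The summed HOXB level in MLL-AF4 cells was 252, 209 and 199.97 CPM in the 3 libraries on day 3 and 318, 346 and 330.3 CPM on day 28. All day 28 libraries lay above all day 3 libraries, with means of 220.5 ± 27.8 and 332 ± 14.2 CPM and a log2 difference of 0.60. Of all single genes tested, 9.67% lay above in the same way. A sum over several genes has less counting error than a single gene, so the single-gene shares given here are not a like background for the sums. The median log2 difference of the other genes of chromosome 17, which holds HOXB, was 0.25. In the other 4 groups the HOXB sum had means between 253 and 277 CPM, so MLL-AF4 cells were the lowest group on day 3 and the highest on day 28. On day 28 all co-expression and all AF4-MLL libraries lay below all MLL-AF4 libraries. Of all single genes tested, 8.23% of genes in co-expression cells and 6.43% in AF4-MLL cells did the same. The HOXA sum had group means of 241 to 276 CPM, the HOXC sum 201 to 229 CPM and the HOXD sum 121 to 146 CPM. In AF4-MLL cells the mean HOXA and HOXD sums were higher on day 28 (log2 differences 0.14 and 0.17) and the HOXB sum lower (-0.13), each without overlap between the days. With libraries scaled to their nuclear counts the HOXA and HOXD differences turned to -0.08 and -0.05. That scaling lowered the median of all genes by 0.22 in AF4-MLL cells over time and by 0.17 in MLL-AF4 cells, where the HOXB difference was still 0.42. A score over chosen genes was given no test. Chromatin that opens in more cells and chromatin that opens wider in each cell cannot be told apart in bulk counts.

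**Figure D1:**
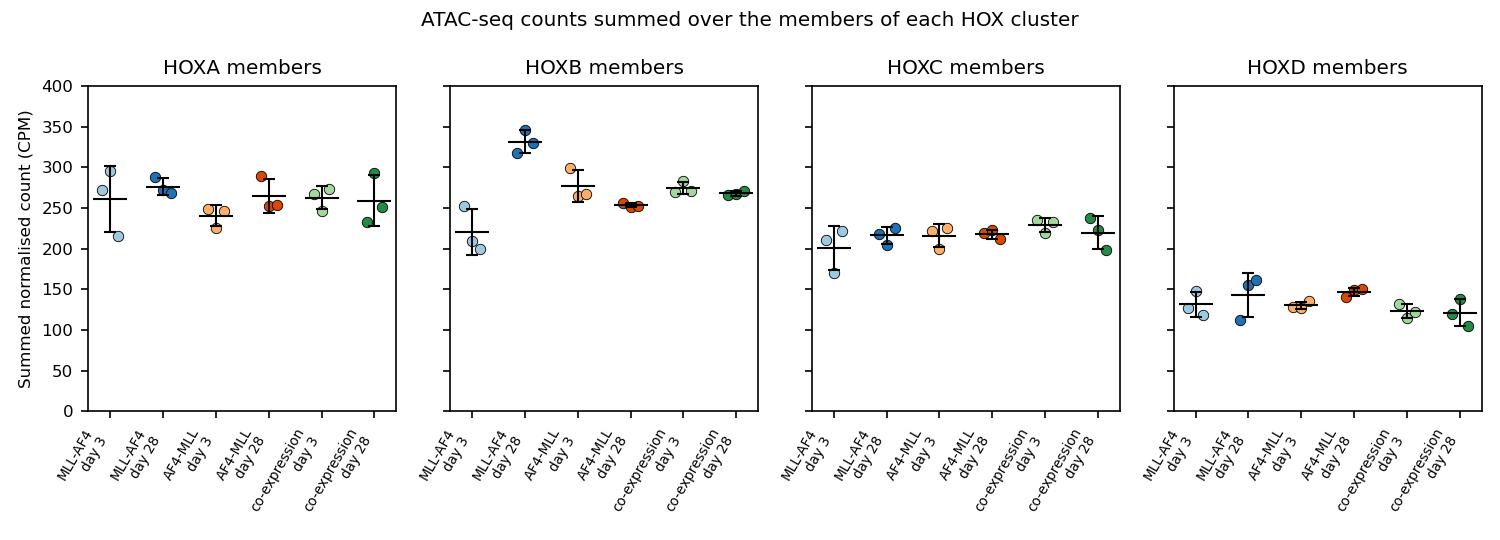
Summed normalised count in CPM (y axis, from 0) of the members of each HOX cluster in each library, by construct and day (x axis); points are libraries, the wide dash is the mean and the bar is ± 1 SD of 3 libraries. HOXB in MLL-AF4 cells was lowest on day 3 (220.5 CPM) and highest on day 28 (332 CPM), and the other clusters had group means of 241 to 276, 201 to 229 and 121 to 146 CPM.

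Over the 12 comparisons, 10 of 408 pairs of a HOX gene and a comparison passed the test (2.45%, edgeR quasi-likelihood F test, Benjamini-Hochberg adjusted p under 0.05 over 17660 genes), against 0.899% of all gene and comparison pairs. Of the 10 pairs, 9 were in HOXB and 1 in HOXD, and they came from 7 genes, HOXB3, HOXB5, HOXB6, HOXB8, HOXB9, HOXB13 and HOXD8. HOXB lies on chromosome 17, which held a larger share of calls between co-expression cells and single fusions. There 3.58% to 4.92% of its other genes were called, against 1.17% to 1.81% of all genes. The part of the chromosome in the HOXB calls was not tested. The DESeq2 Wald test gave an adjusted p to 262 of the 408 pairs, with only 1 of 34 between the single fusions on day 3, and called 3 of them, HOXB6 and HOXB9 over time in MLL-AF4 cells and HOXB5 on day 28 between MLL-AF4 and co-expression cells. These were 1.15% of its pairs with an adjusted p, against 0.563% over all genes. No HOXA or HOXC gene was called in any comparison by edgeR or by DESeq2. The comparisons share groups of libraries, so the pairs are not independent of each other. Over all 408 pairs, 13% had an unadjusted p under 0.05, against 10.7% of all gene and comparison pairs. The study's selection thresholds (unadjusted p under 0.05, absolute log2 difference over 1, mean count over 2) were applied here to the edgeR values, where the study used DESeq2. By them only 2 of the 12 comparisons held a HOX gene. HOXB5 was selected on day 28 between MLL-AF4 and co-expression cells (1 of 34, with 1.29% of all genes selected), and HOXB5, HOXB6 and HOXB7 in the interaction of AF4-MLL with MLL-AF4 cells (3 of 34, with 3.39% of all genes). With 0 HOX genes, the selection held 2.54% of all genes over time in MLL-AF4 cells, 1.79% and 1.36% between co-expression and AF4-MLL cells on day 3 and day 28, and 0.544% between the single fusions on day 28.

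**Figure D2:**
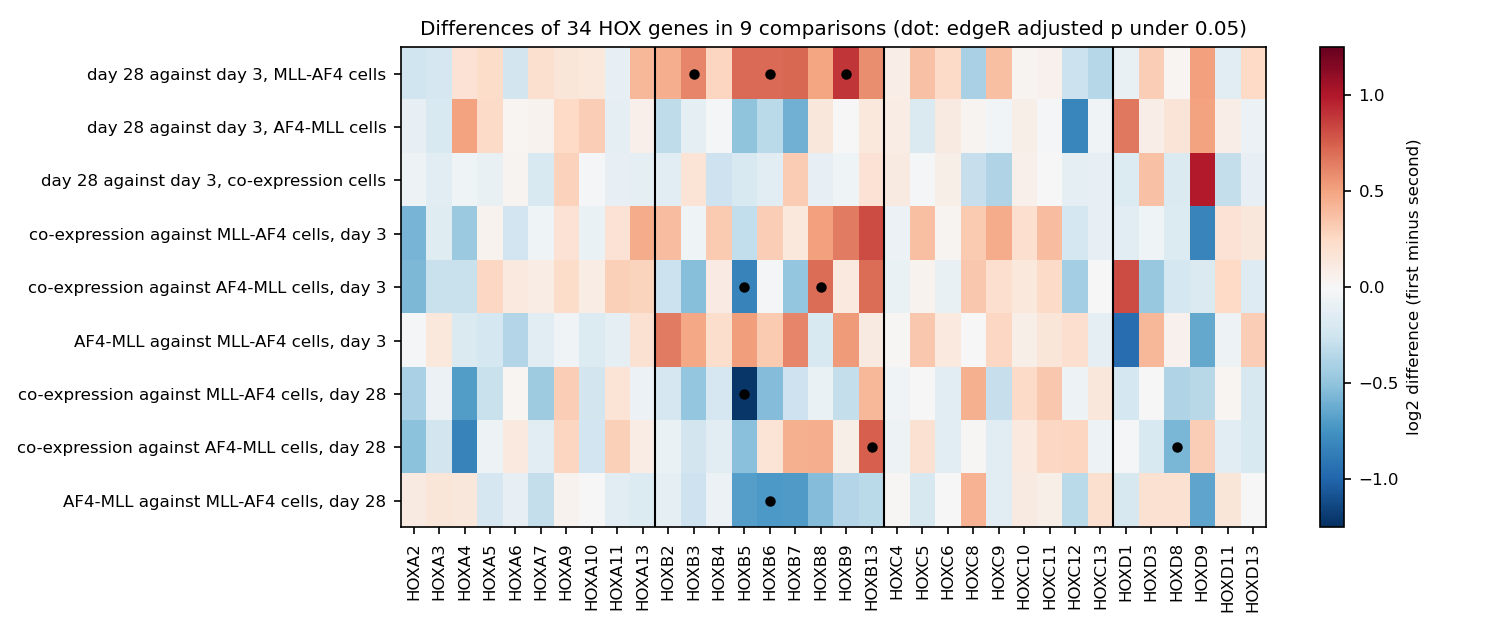
Log2 difference (colour, first group minus second) of the 34 tested HOX genes (x axis, in the order of their numbers within each cluster) in 9 comparisons (y axis); a dot marks an edgeR adjusted p under 0.05, and vertical lines separate the clusters. The block of higher values in the top row is the HOXB cluster in MLL-AF4 cells, where 9 of 9 differences were positive and 3 passed the test.

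The comparison of day 28 with day 3 asks how accessibility changed between the early and the late samples of the same cells. In MLL-AF4 cells HOXB3, HOXB6 and HOXB9 rose, and all 9 tested HOXB genes had a positive difference. HOXB9, a posterior gene that patterns the thorax, stood at 21.2, 21.6 and 22.0 CPM on day 3 and at 37.1, 40.2 and 43.9 CPM on day 28. The day 28 libraries were all clearly above the tight day 3 libraries, and the log2 difference was 0.90 (SE 0.22, edgeR adjusted p = 0.00640). HOXB6, a gene of the middle of the cluster, stood at 30.1, 36.8 and 31.2 CPM on day 3 and at 49.4, 54.7 and 55.5 CPM on day 28. Its groups did not overlap, and the log2 difference was 0.71 (SE 0.19, edgeR adjusted p = 0.0138). HOXB3, an anterior gene that acts in the hindbrain, stood at 49.1, 35.5 and 25.4 CPM on day 3 and at 54.4, 57.5 and 56.4 CPM on day 28. The day 28 libraries were close together and the day 3 libraries were spread, with a log2 difference of 0.61 (SE 0.18, edgeR adjusted p = 0.0398). The other 6 HOXB genes had differences from 0.27 in HOXB4 to 0.71 in HOXB7 that did not pass, and 7 of the 9 HOXB genes had an unadjusted p under 0.05, as did 15.8% of all genes tested. By cluster the median log2 difference was 0.61 in HOXB, 0.14 in HOXA, 0.05 in HOXC and 0.14 in HOXD, beside 0.00 over all genes tested.

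Of the 34 HOX genes, 3 (8.82%) were called in MLL-AF4 cells over time, against 2.87% of all genes tested and 3.69% of the other chromosome 17 genes. In 8 HOX genes the day 28 libraries were all above the day 3 libraries and in 0 all below, where the share of all genes was 9.67% above and 10.7% below. The call of HOXB9 was lost without MLL-AF4 day 3 replicate 1 (log2 difference 0.88, adjusted p = 0.0565). The call of HOXB6 was lost with libraries scaled to nuclear counts and without MLL-AF4 day 3 replicate 1 or 3 or day 28 replicate 2 (0.65 to 0.68, adjusted p = 0.0688 to 0.111). The call of HOXB3 was lost without any 1 of MLL-AF4 day 3 replicates 2 and 3 and day 28 replicates 1, 2 and 3 (0.39 to 0.63, adjusted p = 0.0677 to 0.376), in DESeq2 (adjusted p = 0.0599), with nuclear scaling and without the filter on low counts.

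The genes around the HOXB cluster had a smaller positive median. The median log2 difference over time in MLL-AF4 cells was 0.25 over 895 genes of chromosome 17 and 0.23 over the 20 tested genes that flank the cluster, against 0.61 over the HOXB genes. Of the 20 flanking genes only ZNF652, a zinc finger gene, was called (log2 difference 0.96, SE 0.25, edgeR adjusted p = 0.0127), and it was not called without MLL-AF4 day 3 replicate 1 or 3 or day 28 replicate 2 or 3 (highest adjusted p over all alternatives 0.141). The medians of the chromosomes that hold HOXA, HOXC and HOXD were -0.09, -0.02 and -0.09. The part of the shift of chromosome 17 in the HOXB differences was not tested.

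**Figure D3:**
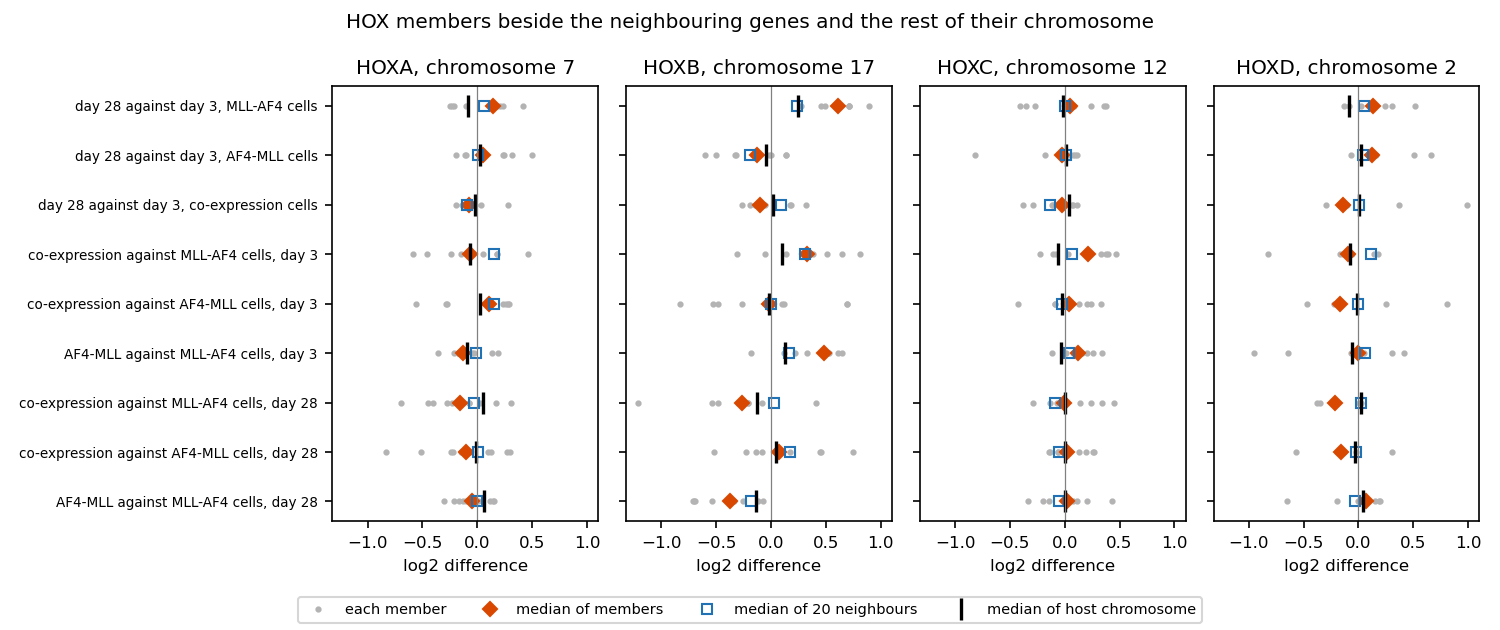
Log2 difference (x axis) of each tested HOX gene (grey points), the median of the cluster (diamond), the median of 20 flanking genes (square) and the median of the other genes of the same chromosome (black tick) in 9 comparisons (y axis). In MLL-AF4 cells over time the HOXB median of 0.61 lay above the chromosome 17 median of 0.25, the HOXA and HOXD medians were 0.14 beside -0.09, and HOXC was 0.05 beside -0.02.

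In AF4-MLL cells and in co-expression cells 0 HOX genes were called over time by edgeR, and 0 by DESeq2. An unadjusted p under 0.05 was seen in 3 and 1 HOX genes, and in 9.29% and 9.51% of all genes. Of all genes tested, 0.606% were called in each. In AF4-MLL cells HOXB5, known from the gut and blood vessels, stood at 25.8, 34.7 and 27.7 CPM on day 3 and at 20.2, 22.1 and 16.7 CPM on day 28. The groups did not overlap, but the log2 difference of -0.50 (SE 0.22, edgeR adjusted p = 0.410) did not pass. HOXB7 had a difference of -0.60 (SE 0.29, edgeR adjusted p = 0.482). In co-expression cells HOXD9, a limb and trunk gene, stood at 12.7, 6.71 and 6.83 CPM on day 3 and at 21.2, 18.7 and 6.65 CPM on day 28. Replicate 3 of day 28 was the lowest of the 6 libraries, and the log2 difference of 0.99 (SE 0.29, edgeR adjusted p = 0.0905) did not pass. It passed without that library (log2 difference 1.17, edgeR adjusted p = 0.0198) and without day 3 replicate 1 (1.36, edgeR adjusted p = 0.0293).

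The change over time was then compared between constructs by an interaction term. HOXB6 changed differently in AF4-MLL cells and in MLL-AF4 cells. In AF4-MLL cells it stood at 42.7, 41.9 and 37.8 CPM on day 3 and at 32.6, 30.9 and 34.2 CPM on day 28, which is the opposite direction to the MLL-AF4 cells. The interaction was -1.04 on the log2 scale (SE 0.25, edgeR adjusted p = 0.0251). HOXB6 was 1 of 34 HOX genes called (2.94%), where 0.317% of all genes and 0.782% of the other chromosome 17 genes were. HOXB5 had the next smallest p, with an interaction of -1.21 (SE 0.33) that did not pass (edgeR adjusted p = 0.0631). All 9 HOXB genes had a negative interaction, with a median of -0.77, beside -0.28 over the chromosome 17 genes. For co-expression against MLL-AF4 cells 0 HOX genes were called by edgeR or DESeq2 (0.232% of all genes were by edgeR), and 6 had an unadjusted p under 0.05 (9.73% of all genes). There, too, all 9 HOXB genes were negative, with a median of -0.59 beside -0.25 over chromosome 17, and HOXB9 and HOXB6 had interactions of -0.95 and -0.85 (edgeR adjusted p = 0.130 and 0.116). These interactions use the same MLL-AF4 libraries. Between co-expression and AF4-MLL cells 0 HOX genes were called by either tool, with 1 at an unadjusted p under 0.05, HOXB7 (0.92, SE 0.40, edgeR adjusted p = 0.955), and 0 of all 17660 genes were called by edgeR or by DESeq2, where 892 (5.05%) had an unadjusted edgeR p under 0.05.

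The comparison of co-expression with single fusions asks how cells with both fusions differ from cells with 1. Co-expression cells also differed in the constitutive vector of MLL-AF4 and in the transient delivery of AF4-MLL, which cannot be told apart from the second fusion. On day 3, HOXB8 was higher and HOXB5 lower in co-expression cells than in AF4-MLL cells. HOXB8, known for keeping myeloid progenitors growing, stood at 52.0, 44.7 and 43.7 CPM in co-expression cells and at 35.1, 17.4 and 27.0 CPM in AF4-MLL cells. All co-expression libraries lay above all AF4-MLL libraries, with a log2 difference of 0.70 (SE 0.18, edgeR adjusted p = 0.0194). HOXB5 stood at 11.998, 17.2 and 18.4 CPM in co-expression cells and at 25.8, 34.7 and 27.7 CPM in AF4-MLL cells. The groups did not overlap, with a log2 difference of -0.83 (SE 0.23, edgeR adjusted p = 0.0377). These 2 genes were 5.88% of the 34, where 1.28% of all genes and 4.47% of the other chromosome 17 genes were called. DESeq2 called neither (adjusted p = 0.139 for HOXB8 and 0.224 for HOXB5). The HOXB8 call was lost without AF4-MLL replicate 2 or 3 or co-expression replicate 1 (log2 difference 0.57 to 0.65, edgeR adjusted p = 0.105 to 0.127), and the HOXB5 call without any 1 of the 6 libraries (-0.65 to -0.96, edgeR adjusted p = 0.0602 to 0.221) and without the filter on low counts.

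Against MLL-AF4 cells on day 3, 0 HOX genes were called in co-expression cells by edgeR or DESeq2. By edgeR 1.81% of all genes and 4.69% of the other chromosome 17 genes were called. There were 4 HOX genes with an unadjusted p under 0.05 (14.5% of all genes). HOXB13, the most posterior HOXB gene, had the smallest unadjusted p (log2 difference 0.81, SE 0.28, edgeR adjusted p = 0.103). HOXB9 followed (0.65, SE 0.23, edgeR adjusted p = 0.113). Between AF4-MLL and MLL-AF4 cells on day 3 edgeR and DESeq2 also called 0 HOX genes, where 0.142% of all genes were called, and 4 had an unadjusted p under 0.05 (9.55% of all genes). The leading genes there were HOXB2 (0.65, SE 0.25, edgeR adjusted p = 0.357) and HOXB3 (0.48, SE 0.19, edgeR adjusted p = 0.365), whose libraries overlapped. The HOXB medians of these comparisons, 0.32 and 0.48, stood beside chromosome 17 medians of 0.10 and 0.12.

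On day 28, HOXB5 was lower in co-expression cells than in MLL-AF4 cells, and this was the HOX difference with the smallest p. It stood at 12.2, 16.8 and 11.96 CPM in co-expression cells and at 34.6, 35.7 and 24.2 CPM in MLL-AF4 cells. The highest co-expression library was below the lowest MLL-AF4 library, with a log2 difference of -1.21 (SE 0.23, edgeR adjusted p = 0.000249). The call held under all 24 alternatives, each single library left out included, with log2 differences from -1.40 to -1.07 and a highest adjusted p of 0.0342. HOXB5 was the only HOX gene called (2.94%), where 1.17% of all genes and 4.92% of the other chromosome 17 genes were. HOXB6 had a difference of -0.54 (SE 0.16, edgeR adjusted p = 0.0551). In 6 HOX genes all co-expression libraries lay below all MLL-AF4 libraries and in 1 above, against 8.23% and 7.75% of all genes. The median of chromosome 17 was -0.13 and that of the HOXB genes -0.26. Of the genes that flank HOXB, ZNF652 was called here too (-0.76, SE 0.21, edgeR adjusted p = 0.0359), and it was not called by DESeq2, without the filter on low counts, or without MLL-AF4 replicate 2 or 3 or any 1 co-expression library (highest adjusted p over the alternatives 0.334).

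Against AF4-MLL cells on day 28, HOXB13 was higher and HOXD8 lower in co-expression cells, 5.88% of the HOX genes where 1.69% of all genes were called. The share called was 3.58% of the other chromosome 17 genes and 0.706% of the other genes of chromosome 2, which holds HOXD8. HOXB13, which acts in the tail bud and the prostate, stood at 26.8, 26.8 and 30.6 CPM in co-expression cells and at 13.02, 16.02 and 20.2 CPM in AF4-MLL cells. The log2 difference was 0.75 (SE 0.22, edgeR adjusted p = 0.0447). HOXD8, at chr2:176129705-176132695, stood at 30.1, 47.9 and 23.9 CPM in co-expression cells and at 50.1, 52.5 and 55.1 CPM in AF4-MLL cells. Replicate 2 of the co-expression cells came close to the AF4-MLL libraries without reaching them, and the log2 difference was -0.57 (SE 0.16, edgeR adjusted p = 0.0396). DESeq2 called neither (adjusted p = 0.366 for HOXB13 and 0.680 for HOXD8). The HOXB13 call was lost without AF4-MLL replicate 1 or 2 or any 1 co-expression library (0.62 to 0.78, edgeR adjusted p = 0.106 to 0.216), with nuclear scaling and without the filter on low counts. The HOXD8 call was lost without any 1 AF4-MLL library or without co-expression replicate 1 or 3 (-0.60 to -0.39, edgeR adjusted p = 0.0678 to 0.459) and without the filter on low counts.

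HOXB13 had a higher mean in co-expression cells than in either single fusion on both days. Its group means were 24.2 ± 4.45 and 28.0 ± 2.19 CPM in co-expression cells on day 3 and day 28, 13.7 ± 0.92 and 20.8 ± 1.11 CPM in MLL-AF4 cells, and 13.8 ± 4.41 and 16.4 ± 3.62 CPM in AF4-MLL cells. The co-expression libraries did not overlap with either single fusion on either day, with log2 differences of 0.81, 0.70, 0.41 and 0.75, of which the last passed the test. DESeq2 did not call the last (adjusted p = 0.366). On day 28 all co-expression libraries lay above all MLL-AF4 libraries in HOXB13, as they did in 7.75% of all genes tested. The comparisons share libraries, and the pattern over them was given no test of its own.

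Between the single fusions on day 28, HOXB6 was lower in AF4-MLL cells. It stood at 32.6, 30.9 and 34.2 CPM in AF4-MLL cells and at 49.4, 54.7 and 55.5 CPM in MLL-AF4 cells. The gap between the groups was wider than the spread within either, with a log2 difference of -0.72 (SE 0.16, edgeR adjusted p = 0.0241). HOXB6 was 1 of 34 HOX genes called (2.94%), and 14 of all 17660 genes were called (0.0793%). Of the other chromosome 17 genes 0.112% were called. All 9 HOXB genes had a negative difference, with a median of -0.37 beside -0.14 over chromosome 17, and HOXB5 had -0.69 (SE 0.21, edgeR adjusted p = 0.218). In 8 HOX genes all AF4-MLL libraries lay below all MLL-AF4 libraries, against 6.43% of all genes. The HOXB6 call was lost in DESeq2 (adjusted p = 0.706) and without MLL-AF4 replicate 2 or 3 or any 1 AF4-MLL library (-0.75 to -0.67, edgeR adjusted p = 0.0675 to 0.228), and without the filter on low counts.

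**Figure D4:**
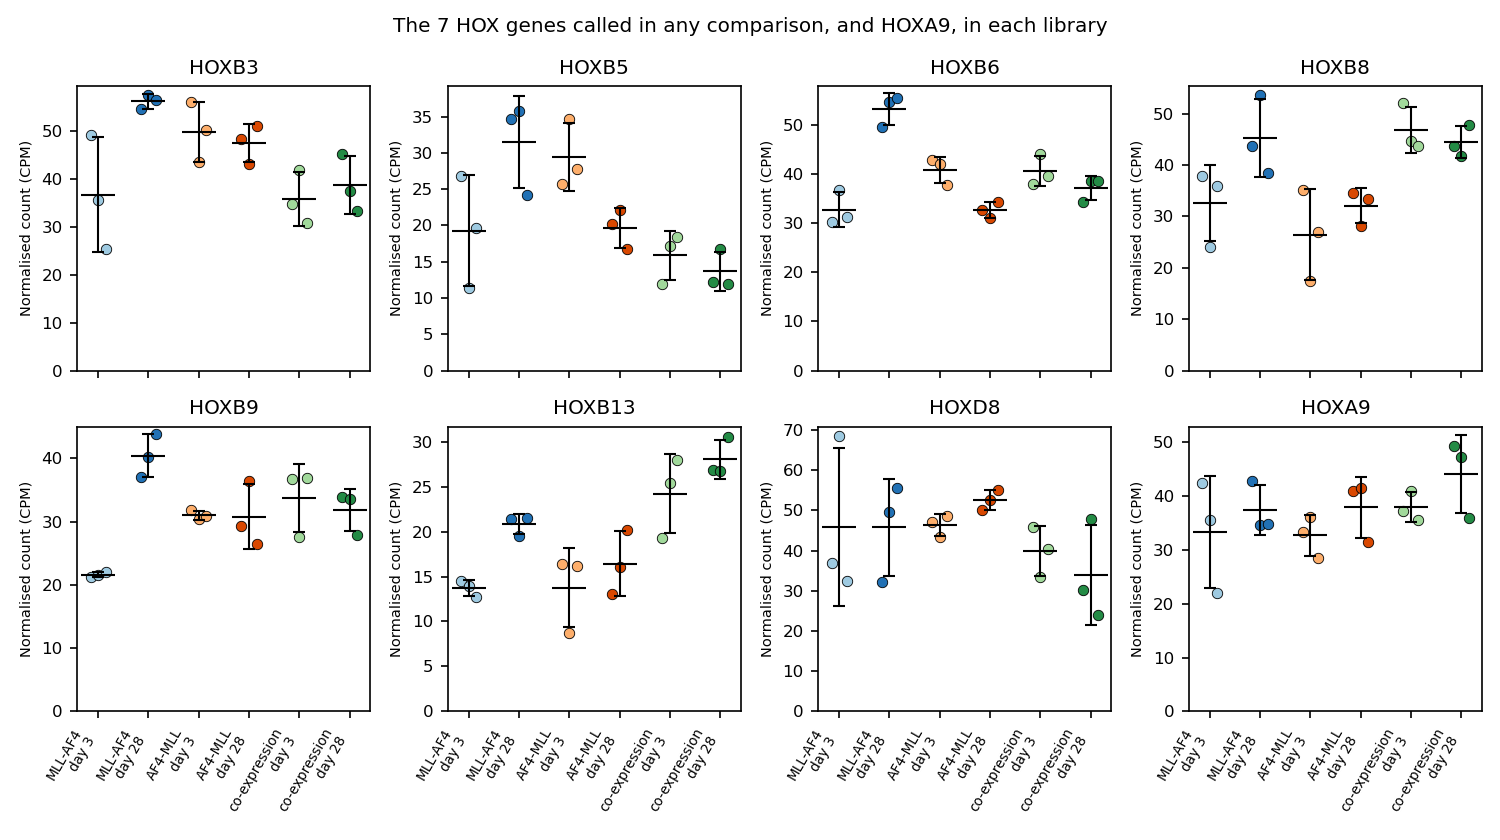
Normalised count in CPM (y axes from 0, scaled per gene) of the 7 HOX genes called in any comparison and of HOXA9, in each library by construct and day (x axis); points are libraries, the wide dash is the mean and the bar is ± 1 SD of 3 libraries. HOXB6 and HOXB9 are highest in MLL-AF4 cells on day 28, HOXB13 is highest in co-expression cells on each day, and the HOXA9 groups overlap throughout.

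HOXB5 and HOXB8, which have HOXB6 and HOXB7 between them, differed in opposite directions between co-expression and AF4-MLL cells on day 3. On day 28 against MLL-AF4 cells HOXB5 was lower, and HOXB8 had a difference of -0.08 (SE 0.16, edgeR adjusted p = 0.902). The share of HOXB8 in the summed counts of the 2 genes does not depend on how libraries are scaled, and the pair was chosen after the values were seen, so it was given no test. On day 3 the share was 81.2%, 72.3% and 70.3% in co-expression cells. It was 58.6%, 67.9% and 64.6% with MLL-AF4 alone, and 57.7%, 33.3% and 49.3% with AF4-MLL alone. On day 28 it was 78.2%, 71.3% and 80% in co-expression cells. It was 55.8%, 60% and 61.4% with MLL-AF4 alone, and 63.1%, 56.0% and 66.7% with AF4-MLL alone. Every co-expression library lay above every library with a single fusion on the same day.

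**Figure D5:**
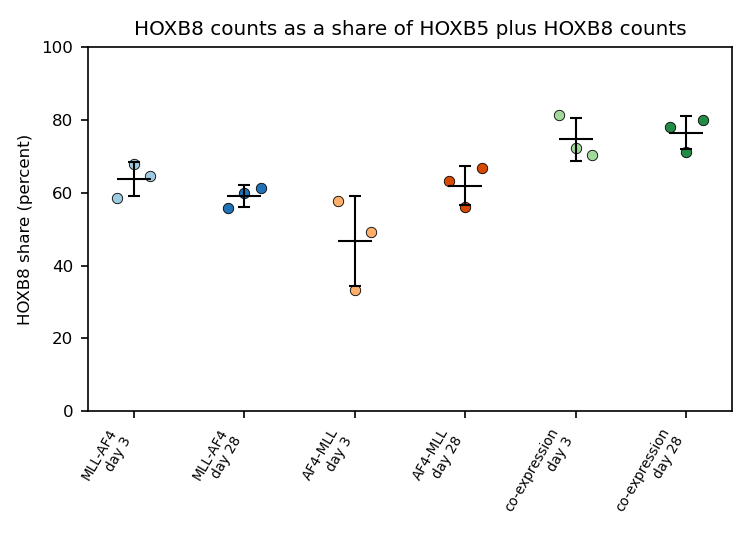
HOXB8 counts as a percent of HOXB5 plus HOXB8 counts (y axis, 0 to 100) in each library by construct and day (x axis); points are libraries, the wide dash is the mean and the bar is ± 1 SD of 3 libraries. The co-expression means of 74.6% and 76.5% lie above the single fusion means of 46.8% to 63.7%.

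The HOXA genes known as targets of MLL fusions, HOXA5, HOXA7, HOXA9 and HOXA10, were described as a group of their own. None of the 4 was called in any of the 12 comparisons by edgeR or DESeq2, and 2 of 48 pairs had an unadjusted p under 0.05 (4.17%). Over all genes 0.899% of pairs were called and 10.7% had an unadjusted p under 0.05. HOXA9 stood at 42.4, 35.5 and 22.0 CPM in MLL-AF4 cells on day 3 and at 42.9, 34.6 and 34.9 CPM on day 28. In AF4-MLL cells it stood at 33.4, 36.2 and 28.5 CPM and then at 41.0, 41.4 and 31.4 CPM. In co-expression cells it stood at 37.3, 41.0 and 35.5 CPM and then at 49.4, 47.3 and 35.9 CPM. The groups overlapped in all 9 comparisons, with log2 differences from -0.05 to 0.31 and standard errors of 0.16 to 0.21. HOXA10 ran from -0.24 to 0.31 and HOXA5 from -0.28 to 0.26. HOXA7 ran from -0.45 to 0.20, and its lowest value, co-expression against MLL-AF4 cells on day 28, had a standard error of 0.19 and an edgeR adjusted p of 0.310. With no cells that lack a fusion, these values compare fusions with each other and say nothing of fusion against none.

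Genes that act on HOX genes or with their proteins were followed from lists. Of 15 tested long noncoding and antisense genes of the clusters, HOTTIP and HOTAIR were called in 3 of 180 pairs (1.67%, beside 0.899% over all genes, which is the background of each list here). HOTTIP, a noncoding gene at the posterior end of HOXA that is known to recruit WDR5 and MLL to it, fell in co-expression cells from 27.2 ± 6.27 CPM on day 3 to 12.4 ± 3.11 on day 28 (log2 difference -1.18, SE 0.25, edgeR adjusted p = 0.000812). It was also called by DESeq2 (adjusted p = 0.0452) and was not called without co-expression day 3 replicate 2 or day 28 replicate 1 (highest adjusted p 0.195). The HOXA genes beside it, HOXA13 and HOXA11, did not pass, with log2 differences of -0.12 and -0.11. HOTAIR, which lies within HOXC and overlaps HOXC11, stood at 25.6 ± 0.48 CPM in co-expression cells on day 28, above 14.4 ± 3.29 in MLL-AF4 cells (log2 difference 0.88, SE 0.24, edgeR adjusted p = 0.0332) and 15.1 ± 3.25 in AF4-MLL cells (0.76, SE 0.23, edgeR adjusted p = 0.0498). DESeq2 called neither HOTAIR difference (adjusted p = 0.252 and 0.411). Of 24 alternatives, 17 called the difference from MLL-AF4 cells and only 5 the difference from AF4-MLL cells.

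Of 26 genes of the Polycomb side and the enzymes that remove its marks, 4 were called in 6 of 312 pairs (1.92%, beside 0.899% over all genes). KDM6B, a demethylase that removes the Polycomb mark, was lower in co-expression cells on day 3, at 21.6 ± 2.61 CPM, than in AF4-MLL cells at 46.4 ± 2.66 CPM (log2 difference -1.11, SE 0.19, edgeR adjusted p = 1.06e-05). This call held under all 24 alternatives. CBX8, a Polycomb chromodomain gene on chromosome 17, was higher in co-expression than in MLL-AF4 cells on day 3 (0.78, SE 0.20, edgeR adjusted p = 0.0121), and RBBP4, a histone binding subunit, rose over time in co-expression cells (0.53, SE 0.14, edgeR adjusted p = 0.0339). DESeq2 called neither of these (adjusted p = 0.0671 and 0.225). The fourth was PHF1, a Polycomb accessory gene, which rose over time in MLL-AF4 cells (0.84, SE 0.26, edgeR adjusted p = 0.0499) and was called under 5 of 23 alternatives that gave an adjusted p. Of 20 genes of the trithorax side, menin and the elongation complexes, KMT2A alone was called, the gene the constructs carry, in 5 of 240 pairs (2.08%). Of 9 TALE partners only PKNOX2 was called, in 2 of 108 pairs (1.85%). It was lower on day 28 than on day 3 in MLL-AF4 cells (-1.20, SE 0.31, edgeR adjusted p = 0.0138), and DESeq2 gave it no adjusted p. Of 13 tested genes of the retinoic acid pathway, which switches on HOX genes in the embryo, RARA and RARB were called in 3 of 156 pairs (1.92%). On day 3 RARA was lower in co-expression cells than with AF4-MLL alone (-0.82, SE 0.23, edgeR adjusted p = 0.0424) and was not called by DESeq2 (adjusted p = 0.287). RARB, a retinoic acid receptor, stood on day 28 at 10.4 ± 0.43 CPM in co-expression cells and at 24.9 ± 1.99 CPM in AF4-MLL cells (-1.26, SE 0.25, edgeR adjusted p = 0.000458), and this call held under all 24 alternatives.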

How the data were processed

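ATAC-seq libraries were made with Nextera transposase from the nuclei of 18 samples, 6 groups of 3. The authors deposited 1 table of raw counts, whole numbers of reads for 54425 genes. Per the submitters' processing notes, reads were handled with bcl2fastq, Bowtie2 and HTSeq on GRCh38. Versions, the region counted per gene and the treatment of duplicate reads, of reads with several hits and of the transposase offset are not given in the sources used here. Groups and replicate numbers came from the sample titles. The study speaks of biological replicates and the titles number them, but how the cultures were kept apart is not given in the sources used here, so p-values measure the spread between these libraries.

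Counts were fitted in R 4.3.3 with edgeR 4.0.16: TMM, filterByExpr (minimum count 10, minimum total 15), 6 groups over all 18 libraries, quasi-likelihood F tests of 9 comparisons and 3 interactions, and Benjamini-Hochberg adjustment over 17660 genes. The biological coefficient of variation was 7.48%. Cluster sums were given no test. DESeq2 1.42.0 was an alternative, and 24 alternative fits were made in all, 18 of them leaving out 1 library. The steps were tested on simulated data with changes planted only in genes with higher counts, so that test does not cover HOX genes with few counts.

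The HOX members and the gene lists were chosen with earlier results of these data known. Named are all members called in a comparison, the 2 with the smallest p in each, the highest and lowest per cluster, the 4 HOXA targets, KMT2A, called list genes (up to 3 per list, and PHF1, named after its value was seen) and called genes among 10 tested neighbours on each side of a cluster. Counting error limits genes with few reads.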

Additional observations from a re-analysis of the deposited data

Results flagged for a closer look

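The change of HOXB6 from day 3 to day 28 differed between AF4-MLL and MLL-AF4 cells by a test of the difference itself. The interaction was -1.04 on the log2 scale (SE 0.25, edgeR adjusted p = 0.0251). HOXB6 rose from 32.7 ± 3.57 to 53.2 ± 3.28 CPM in MLL-AF4 cells (SD, n = 3) and stood at 40.8 ± 2.68 CPM and then at 32.6 ± 1.62 CPM in AF4-MLL cells. DESeq2 gave an adjusted p of 0.0526, and the call was lost when MLL-AF4 day 3 replicate 1 or 3, AF4-MLL day 3 replicate 1 or 3, MLL-AF4 day 28 replicate 2 or 3, or AF4-MLL day 28 replicate 1 or 2 was left out (interaction -1.10 to -0.98, edgeR adjusted p = 0.0552 to 0.141). Under all 24 alternatives the interaction lay between -1.13 and -0.98.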

How the results depend on the processing

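Cluster sums kept their value within 1 SD under 313 of 324 alternative settings. Most of these left out 1 library, which cannot move a mean of 3 libraries by that much, so only the rescalings could differ. The other 11 were comparisons of days with libraries scaled to nuclear counts, a scaling that lowered the median of all genes by 0.17 to 0.22. There the log2 differences were -0.086, 0.42 and -0.063 for HOXA, HOXB and HOXC in MLL-AF4 cells, -0.0821, -0.35, -0.20 and -0.051 for HOXA to HOXD in AF4-MLL cells, and -0.24, -0.25, -0.28 and -0.24 in co-expression cells. Under this scaling 1 HOX gene was called over time in MLL-AF4 cells (3 in the report), 2 in AF4-MLL cells (0), 2 on day 28 between MLL-AF4 and co-expression cells (1) and 1 on day 28 between AF4-MLL and co-expression cells (2). DESeq2 size factors and leaving out mitochondrial genes each gave 2 in the former. The DESeq2 Wald test called 0 HOX genes between co-expression and AF4-MLL cells on day 3 (2 in the report) and on day 28 (2), between AF4-MLL and MLL-AF4 cells on day 28 (1) and in their interaction (1). Without a filter on low counts these were 1, 0, 0 and 1. The study's selection thresholds (unadjusted p under 0.05, absolute log2 over 1, mean count over 2), applied to the edgeR values, gave 0 over time in MLL-AF4 cells. They gave 0 and 0 between co-expression and AF4-MLL cells on day 3 and day 28, 0 between AF4-MLL and MLL-AF4 cells on day 28 and 3 in their interaction. The cause of these changes was not tested. With 1 library left out, the calls over time ranged from 1 to 3 for MLL-AF4 and from 0 to 1 for co-expression cells, from 0 to 2 between co-expression and AF4-MLL cells on day 3 and on day 28, from 0 to 1 between AF4-MLL and MLL-AF4 cells on day 28 and from 0 to 1 in their interaction.

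Counts of calls over all 17660 genes fell with DESeq2 from 506, 107 and 107 to 261, 67 and 68 over time in MLL-AF4, AF4-MLL and co-expression cells, and scaling to nuclear counts raised them to 1223, 708 and 914. Leaving out mitochondrial genes gave 62 and 51 in the last 2. For co-expression against MLL-AF4 cells, DESeq2 called 77 and 23 genes on day 3 and day 28 where edgeR called 319 and 206, against AF4-MLL cells 33 and 43 where edgeR called 226 and 299, and between the single fusions 15 and 2 where edgeR called 25 and 14. Without a filter edgeR called 248 over time in MLL-AF4 cells, 103 on day 28 against MLL-AF4 cells, 107 and 123 against AF4-MLL cells and 10 and 4 between the single fusions, and with nuclear scaling 12 in the last on day 3. The interactions of co-expression and of AF4-MLL with MLL-AF4 cells held 41 and 56 calls, 17 and 22 with DESeq2, and 30 and 26 unfiltered. With 1 library left out the lowest counts were 215 over time in MLL-AF4 cells, 113 and 59 for co-expression against MLL-AF4 cells, 86 and 103 against AF4-MLL cells, 2 and 2 between the single fusions and 9 and 20 in these interactions. Of the 594 values of named HOX genes under alternatives, 529 kept direction and side of the threshold, 57 lost it, 8 gained it and 0 turned direction.

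No pairing by replicate number was seen, as deviations of libraries with the same number correlated by -0.10 to 0.03 over 45 pairs. The spread between replicates was 1.06 to 1.42 times that of counting error alone (chi-square per degree of freedom, nuclear genes). Counting error would keep such correlations low, so they cannot exclude a pairing. With the replicate number as a block, 1 HOX gene in place of 2 was called between co-expression and AF4-MLL cells on day 28, HOXD8 being lost, and no other count of HOX calls moved. The GC content fits, with and without the replicate block, were not run because promoter sequences covered only 66.5% of the genes tested, under the 80% set for them. Counts per HOX gene of 0.611 to 71.8 per library limit what could be detected.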

Other observations

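Other homeobox genes related to the HOX clusters, among them CDX and MEOX genes, had no called difference. Of 13 genes, 8 were tested in 96 pairs of a gene and a comparison, 0 were called by edgeR or by DESeq2, and 8 pairs (8.33%) had an unadjusted p under 0.05, where 0.899% of all pairs were called by edgeR and 10.7% had an unadjusted p under 0.05. Of the microRNA genes within the clusters, MIR10B, MIR196A1, MIR196A2 and MIR615 were counted and none had enough reads for the test, with 0 to 7 counts per library. PTPRC, which encodes the leukocyte surface protein CD45, stood on day 28 at 7.92 ± 1.04 CPM in co-expression cells and at 18.6 ± 5.36 CPM in AF4-MLL cells (SD, n = 3, log2 difference -1.22, SE 0.29, edgeR adjusted p = 0.00627). DESeq2 did not call it (adjusted p = 0.143), nor did edgeR without AF4-MLL day 28 replicate 1 or 2 or co-expression day 28 replicate 2. PRKRA, which lies near HOXD, fell over time in MLL-AF4 cells (log2 difference -0.59, SE 0.16, edgeR adjusted p = 0.0150) and was not called without a filter on low counts or without MLL-AF4 day 3 replicate 1 or 3 or day 28 replicate 2. The 6 tested HOXD genes had a median difference of 0.14.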
